A study of Mus musculus with 6 samples.

Results

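The genes described here are the 5 NF-kB subunit genes Nfkb1, Nfkb2, Rel, Rela and Relb, together with 5 genes whose products restrain or tune the pathway, namely Nfkbia, Nfkbib, Nfkbie, Nfkbiz and Tnfaip3. They were chosen by gene symbol, and all 10 were found once each among the 25302 rows of the table. Total RNA from biliary epithelial cells (bile duct lining) of mouse liver was sequenced after rRNA depletion. The 3 Control samples had the genotype Sox9fl/fl, and the 3 Sox9cKO samples had the genotype Sox9fl/fl:AlbCre+/-. Both groups thus carried floxed alleles of Sox9, a transcription factor gene of bile duct cells, and the Sox9cKO samples were in addition heterozygous for AlbCre, in which the albumin promoter drives the recombinase Cre. That promoter is active in the hepatoblast lineage, from which both hepatocytes and biliary cells descend, so Cre is not limited to bile ducts. Age, pooling of animals and how the cells were isolated are not given in the sources used here.

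NF-kB factors are dimers of Rel-domain proteins. In resting cells they are held in the cytoplasm by inhibitor proteins of the IkB family, and signals from receptors such as those for TNF or interleukin-1 activate the IkB kinase, which marks IkB for destruction and frees the dimers to enter the nucleus. Much of this control acts on proteins and leaves no trace in the RNA of the subunits, but several of the pathway's own genes, Nfkbia, Tnfaip3, Nfkb2, Rel and Relb among them, are textbook targets of NF-kB and so form feedback loops. In bile duct cells the pathway is known for driving chemokine and cytokine genes during injury and infection.

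Sequences upstream of members are shown because these feedback loops act through DNA sites of the kappaB consensus, which is 10 bases long. RefSeq promoter windows (build GRCm38.p6, 250 bases before to 50 bases after a transcript start) were at hand for 7 members, with 10 windows in all. The kappaB consensus, searched on both strands, was present in 7 of these 10 windows and in 4.51% of the 32851 windows of the whole table. Overlapping matches were merged. The 5 members with a match were Tnfaip3, Nfkbia, Rel, Nfkb2 and Nfkbie. The stretches below run 5′ to 3′ on the strand of the gene, lie wholly before the transcript start, and have the kappaB matches in capitals. They come from chr10:19015411-19015560 (minus strand) for Tnfaip3, chr12:55492648-55492701 (minus) for Nfkbia, chr11:23771026-23771086 (minus) for Rel and chr19:46305680-46305739 (plus) for Nfkb2.
Tnfaip3: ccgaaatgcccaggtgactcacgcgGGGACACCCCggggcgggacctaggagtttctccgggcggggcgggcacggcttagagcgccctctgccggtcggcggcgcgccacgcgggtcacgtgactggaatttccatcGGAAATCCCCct
Nfkbia: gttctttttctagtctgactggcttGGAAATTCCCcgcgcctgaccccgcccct
Rel: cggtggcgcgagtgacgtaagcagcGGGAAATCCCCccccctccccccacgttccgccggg
Nfkb2: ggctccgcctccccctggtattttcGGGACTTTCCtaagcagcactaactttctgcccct
In Tnfaip3 the first match began at position -125 and the second ended at position -3 relative to the start. In Nfkbia the match spanned -29 to -20, in Rel -92 to -82 and in Nfkb2 -225 to -216. Nfkb2 has 3 windows for different starts and each held a match, and 1 of them is shown. Tnfaip3 has 2 windows, and the one not shown held no match. The windows of Rela and Nfkbib held none. A match describes letters in a window and does not show that a factor binds there.

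The targeted gene was checked first. Sox9 had normalized counts of 6211, 6043 and 6293 in the Control samples and 3363, 3165 and 3340 in the Sox9cKO samples, which separated the libraries as labelled. The mean fell to 53.2% (log2 fold change -0.91, limma adjusted p 0.00501). Whether the counted reads lie in the deleted part of the gene is not given in the sources used here. Total reads lay between 11883496 and 16191990 per sample, and normalized counts are read numbers divided by each sample's size factor. The biliary identity of the cells was visible in all 6 libraries, with Epcam between 5501 and 8249 and Krt19 between 11480 and 26648. Transcripts of other cell types were present too. The summed counts of 12 endothelial markers ranged from 1790 to 39977 in Control and from 6549 to 40747 in Sox9cKO, and those of 14 hepatocyte markers from 25057 to 38797 and from 48066 to 79381. Of the hepatocyte markers 4 (Apob, Fgb, Serpina1a and Tat) were called higher in Sox9cKO by limma, and 5 with the replicate number of the labels as a block, which added Hnf4a. Apob was at 3312, 2241 and 2584 in Control and 16585, 17183 and 32564 in Sox9cKO. Alb overlapped, at 27683, 17384 and 18944 in Control and 32147, 21399 and 35363 in Sox9cKO. In 6 of the 14 all Sox9cKO samples lay above all Control samples (13.4% of all tested genes), and the rest overlapped. All 12 endothelial markers had a positive value, with a median log2 fold change of 1.07 with limma, 0.50 with edgeR and 0.51 with DESeq2. Limma called 0 of them (1 at an unadjusted p under 0.05, and 0 called by edgeR and by DESeq2), and with the block it called Vwf, with 11 at an unadjusted p under 0.05. The endothelial sum was higher in Sox9cKO in all 3 pairs of equal number. Of 16 leukocyte markers, 12 were in the table. Their summed level was 2089 to 2571 in Control and 2889 to 4635 in Sox9cKO, mostly from Cd74 and Csf1r, while the pan-leukocyte gene Ptprc had at most 37.0 and Tyrobp at most 9.28, with Tyrobp and Ms4a1 each at 0 in 2 of the 3 Sox9cKO samples. Of 8 leukocyte markers tested, 6 had a negative value, Csf1r was called higher, and Lyz2 was called lower with the block. Of the biliary markers limma called Krt7 as higher. Xist, expressed from the inactive X chromosome of females, was at 31920, 6.5 and 32280 in Control and 27850, 6.6 and 10.2 in Sox9cKO, so 2 of 3 Control samples and 1 of 3 Sox9cKO samples were high.

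None of the 10 members passed an adjusted p of 0.05 between the genotypes (limma on log2 values, Benjamini-Hochberg adjustment over 17153 tested genes). All 10 were tested, and of the tested genes overall 2.97% passed (2.03% higher and 0.939% lower). At an unadjusted p under 0.05 there were 2 members, Tnfaip3 and Rel, and 17.8% of all tested genes. The count tests on recovered reads also called 0 members, with 2 members under an unadjusted 0.05 by edgeR and 3 by DESeq2, and of all tested genes edgeR called 2.86% and DESeq2 7.08%. The 3 Sox9cKO values lay entirely on one side of the 3 Control values in 3 members, with Tnfaip3 higher and Rel and Nfkb2 lower. Groups did not overlap in 24.2% of all tested genes (13.4% with Sox9cKO higher and 10.8% with it lower). The fold changes of 4 members were positive and those of 6 negative, with a median of -0.12 on the log2 scale against 0.036 over all tested genes. With the replicate number as a block, 1 member was called, Tnfaip3, as higher, as were 5.06% of all tested genes (8.05% in both directions, 2.99% lower). No label says that the samples of a group come from separate animals, so the p-values measure the spread between these samples, part of which may be technical. Xist-high and Xist-low samples occurred in each group.

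**Figure D1:**
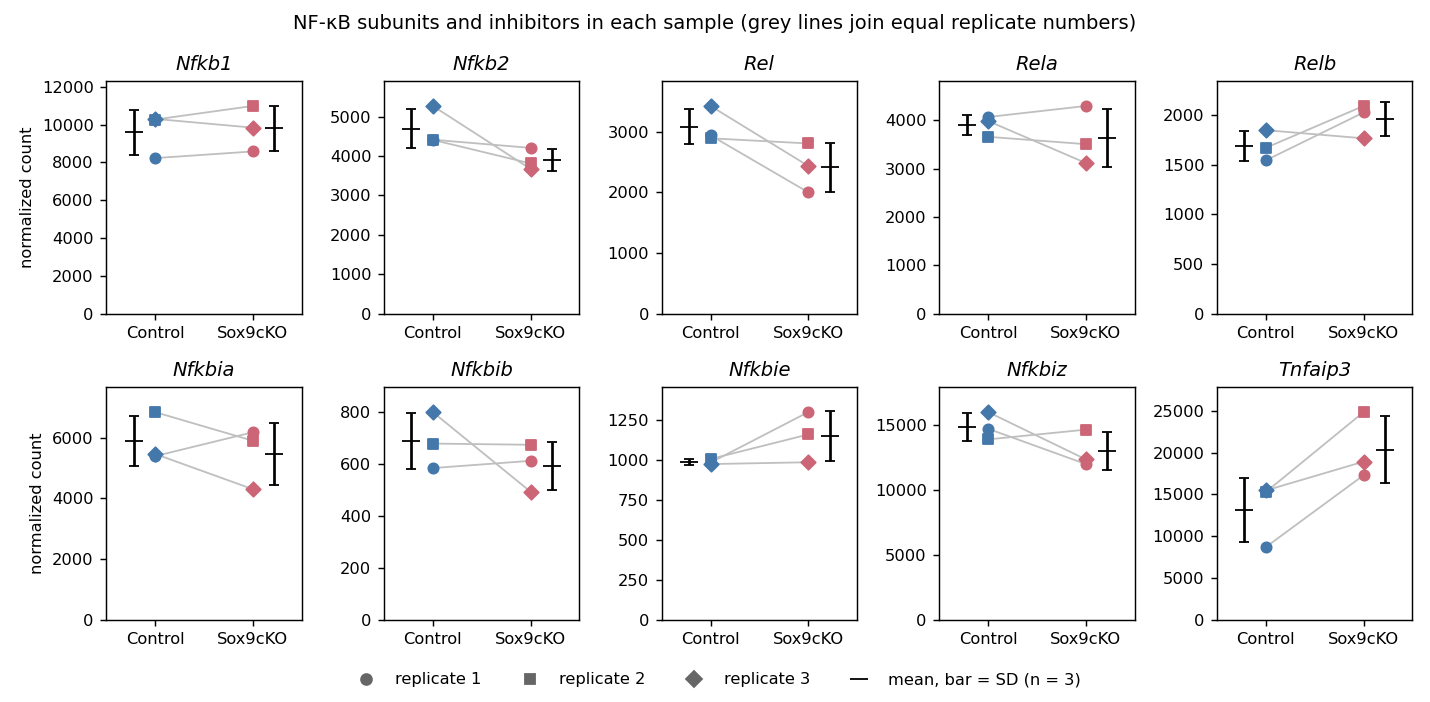
Normalized count (vertical axis, from 0) of each of the 10 members in the 3 Control (blue) and 3 Sox9cKO (red) samples, with marker shapes for replicate numbers, grey lines joining equal numbers, and black ticks with bars for the group mean and SD (n = 3). The groups are separate for Tnfaip3, Rel and Nfkb2 and overlap for the other 7 members.

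Tnfaip3 (ENSMUSG00000019850), which encodes the ubiquitin-editing enzyme A20 that shuts off signalling upstream of the IkB kinase, differed most. Its normalized counts were 8699, 15279 and 15465 in the Control samples (replicates 1, 2 and 3, the order kept throughout) and 17286, 24835 and 18911 in the Sox9cKO samples. Every Sox9cKO sample lay above every Control sample, Control replicate 1 stood well below its group, and Sox9cKO replicate 2 was the highest of the 6. The means were 13147 ± 3854 and 20344 ± 3973 (SD, n = 3), a ratio of 1.55. On the log2 scale the difference was 0.66, with standard error 0.25, 95% interval 0.063 to 1.26 and limma adjusted p 0.235. Between samples of equal number the log2 difference was 0.99, 0.70 and 0.29, positive in all 3 pairs. With the replicate block the standard error was 0.15, the interval 0.31 to 1.01 and the adjusted p from limma 0.0442. edgeR with the block gave an adjusted p of 0.0682. Without Control replicate 1 the log2 fold change was 0.39 (limma adjusted p 0.468), and without Sox9cKO replicate 2 it was 0.51 (0.469).

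The sample with the highest Tnfaip3 count, Sox9cKO replicate 2, also had the highest endothelial sum, 40747, and the highest leukocyte sum, 4635. Cd74 (2946) and Csf1r (1446) made up most of that leukocyte sum, while Ptprc (12.3), Tyrobp (0) and Cd68 (113) lay below every Control sample. Control replicate 3 had the lowest endothelial sum, 1790, and Control replicate 2 the highest of its group, 39977. Their Tnfaip3 counts were close, at 15465 and 15279. In fits chosen after the data were examined, the log2 fold change of Tnfaip3 was 0.67 with an endothelial score as covariate and 0.54 with the Xist level as covariate (limma adjusted p 0.237 and 0.322). The part of leukocyte transcripts in the Tnfaip3 difference was not tested. In bulk samples, fewer cells of a type and less RNA per cell cannot be told apart.

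Rel (ENSMUSG00000020275) encodes c-Rel, a subunit with a transactivation domain that is best known from lymphocytes. It had normalized counts of 2943, 2894 and 3428 in Control and 2003, 2809 and 2439 in Sox9cKO. All Sox9cKO samples were below all Control samples, but Sox9cKO replicate 2 came within 100 of the lowest Control sample. The means were 3088 ± 295 and 2417 ± 403 (SD, n = 3). The difference on the log2 scale was -0.36, its 95% interval -0.72 to -0.0081, and the adjusted p from limma was 0.270 (0.131 with the replicate block). Ptprc stood at 37.0, 36.2 and 19.6 in Control against 16.9, 12.3 and 1.13 in Sox9cKO, and the leukocyte list as tested had a median log2 fold change of -0.57. In the same list Csf1r rose from 780, 705 and 797 to 1266, 1446 and 1638, and the summed level was higher in Sox9cKO (2889 to 4635 against 2089 to 2571). The part of leukocyte transcripts in the Rel difference was not tested.

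Nfkb2 (ENSMUSG00000025225) encodes p100, the precursor of p52 and itself an IkB-like inhibitor, and is the hub of the noncanonical branch. Its counts were 4415, 4410 and 5271 in Control and 4206, 3812 and 3672 in Sox9cKO, again without overlap, with Control replicate 3 standing above the rest. The log2 fold change was -0.27 with a 95% interval of -0.55 to 0.014 (limma adjusted p 0.307), and without Control replicate 3 it was -0.18. In GENCODE M21 the exons of Nfkb2 share 299 bases with Psd and 531 bases with a promoter-associated noncoding gene, both on the opposite strand, and whether counting used the strand is not given in the sources used here.

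Relb (ENSMUSG00000002983), the subunit that pairs with p52 in the noncanonical branch, had a positive value. Its counts were 1545, 1672 and 1849 in Control and 2028, 2093 and 1767 in Sox9cKO. Sox9cKO replicates 1 and 2 exceeded all Control samples, and Sox9cKO replicate 3 fell inside the Control range. This gave a log2 fold change of 0.22 with a 95% interval of -0.070 to 0.50 (limma adjusted p 0.415).

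Rela (ENSMUSG00000024927), encoding p65, the main transactivating subunit of the canonical branch, had counts of 4070, 3660 and 3986 in Control and 4299, 3508 and 3118 in Sox9cKO. The Sox9cKO samples spanned the whole Control range, and the 95% interval of the log2 fold change ran from -0.44 to 0.22 (limma adjusted p 0.736). Nfkb1 (ENSMUSG00000028163), encoding p105 and its product p50, the usual partner of p65, had counts of 8226, 10265 and 10299 in Control and 8578, 10983 and 9836 in Sox9cKO. The 2 groups covered nearly the same range, and the log2 fold change was 0.031 with a 95% interval of -0.31 to 0.37, a fold of 0.806 to 1.29. The sign of the Nfkb1 value was negative with quantile normalization, edgeR and DESeq2. Replicate 1 was the lowest sample of its group for Nfkb1 in both genotypes.

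**Figure D2:**
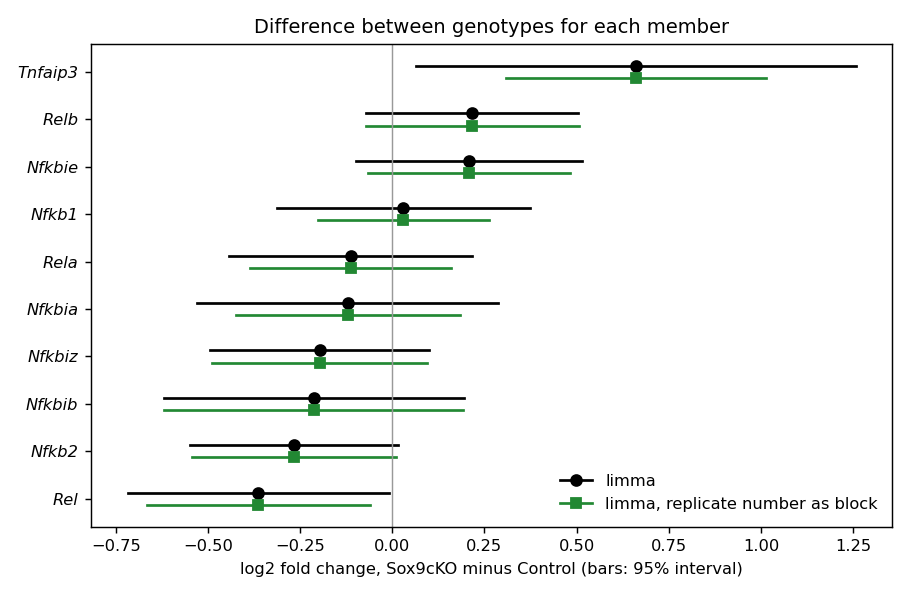
Log2 fold change of each member (Sox9cKO minus Control, horizontal axis) with 95% intervals from limma without (black) and with (green) the replicate number as a block. Tnfaip3 stands at 0.66 and Rel at -0.36, and the intervals of 8 members include 0 in both fits.

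The classical IkB genes did not separate the groups. Nfkbia (ENSMUSG00000021025), encoding IkB-alpha, the fast-turnover inhibitor that NF-kB itself induces, had counts of 5392, 6843 and 5463 in Control and 6180, 5898 and 4302 in Sox9cKO. Sox9cKO replicate 3 was the lowest of the 6 samples, and the other Sox9cKO samples lay inside the Control range. The log2 fold change was -0.12 with a 95% interval of -0.53 to 0.29 (limma adjusted p 0.774). Without Sox9cKO replicate 3 it turned to 0.042. Between samples of equal number the log2 difference of Nfkbia was 0.20, -0.21 and -0.34. Tnfaip3, the other strongly inducible feedback inhibitor here, was positive in all 19 alternative fits, and Nfkbia was negative in 18 of them. These fits reuse the same 6 samples, so the tally adds no evidence on either sign.

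Nfkbib (ENSMUSG00000030595), encoding IkB-beta, which is not strongly NF-kB-inducible, was the least abundant member by read number, with counts of 585, 679 and 801 in Control and 613, 675 and 494 in Sox9cKO. Its log2 fold change was -0.21 with a 95% interval of -0.62 to 0.19. Its exons share 314 bases with Ccer2 and 42 bases with Sirt2 on the opposite strand in GENCODE M21. Nfkbie (ENSMUSG00000023947), encoding IkB-epsilon, had counts of 983, 1005 and 974 in Control and 1298, 1159 and 985 in Sox9cKO. The Control samples lay close together (SD 16.3, 1.65% of the mean), closer than counting error alone would give on average at such read numbers. The SD of the Sox9cKO samples was 13.7% of their mean, and only Sox9cKO replicate 3 lay among the Controls. All 3 pairs of equal number were positive, by 0.40, 0.20 and 0.017 on the log2 scale, and the log2 fold change was 0.21 with a 95% interval of -0.099 to 0.51 (limma adjusted p 0.468).

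Nfkbiz (ENSMUSG00000035356) encodes IkB-zeta, a nuclear protein of the IkB family that binds p50 and helps switch on a subset of secondary NF-kB targets such as Lcn2. It was expressed at 14689, 13873 and 15972 in Control and 11974, 14624 and 12334 in Sox9cKO. Sox9cKO replicates 1 and 3 were below all Control samples and Sox9cKO replicate 2 was within the Control range. The log2 fold change was -0.20 with a 95% interval of -0.49 to 0.099 (limma adjusted p 0.478).

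The members had between 436 and 26279 reads per sample, and their means lay between percentiles 77.1 and 99.7 of the tested genes. Counting error at the lowest of these read numbers is 4.79% of the value. The SD between samples of a group ranged from 1.65% of the mean (Nfkbie in Control) to 29.3% (Tnfaip3 in Control).

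Per kilobase of merged exon (GENCODE M21 lengths), Nfkbia, Nfkbiz and Tnfaip3 stood above the subunits by their means, and Nfkbie and Nfkbib stood below them in Control. In Control the order of the levels in normalized counts per kilobase was Nfkbia 3664 ± 508, Nfkbiz 2958 ± 211, Tnfaip3 1819 ± 533, Rela 1271 ± 70.4, Nfkb2 1025 ± 108, Nfkb1 796 ± 98.4, Relb 435 ± 39.3, Rel 414 ± 39.5, Nfkbie 324 ± 5.345 and Nfkbib 317 ± 49.9 (SD, n = 3). Neighbours whose sample values overlapped in Control were Tnfaip3 and Rela, Relb and Rel, and Nfkbie and Nfkbib. In Sox9cKO the first 3 places were Nfkbia at 3391 ± 629, Tnfaip3 at 2815 ± 550 and Nfkbiz at 2586 ± 286, and the sample values of each overlapped those of the next. Tnfaip3 thus stood above Nfkbiz by its mean in Sox9cKO and below it, without overlap, in Control. Total RNA can include unspliced transcripts, and these lengths count exons alone. The lengths merge the exons of all annotated transcripts, to 12.06 kb for Nfkb1. Where the expressed transcripts are shorter than the merged length, the level comes out too low. The order between genes therefore depends on these lengths, and which transcripts were expressed was not tested.

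**Figure D3:**
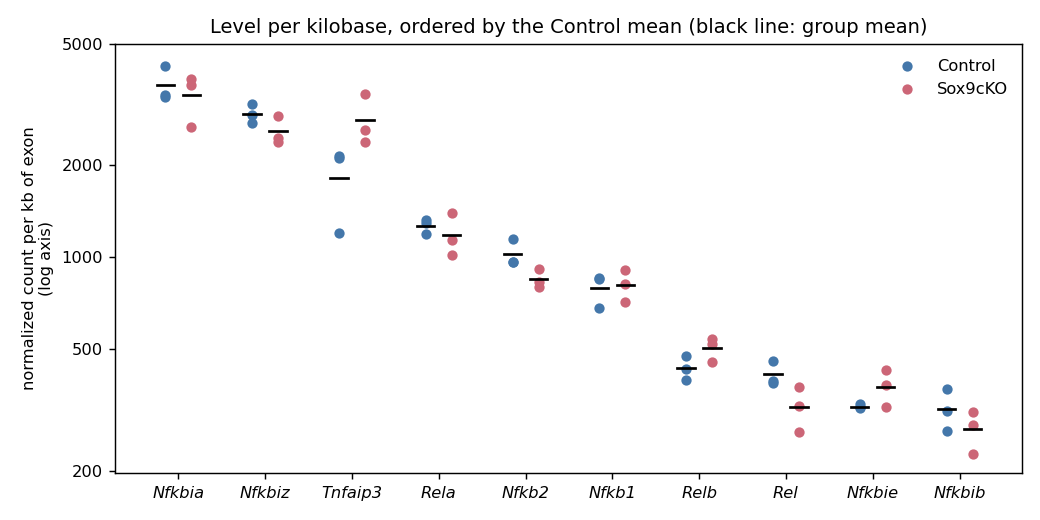
Normalized count per kilobase of merged exon (log axis) of each member in the 3 Control (blue) and 3 Sox9cKO (red) samples, ordered by the Control mean, with black lines for group means. Nfkbia, Nfkbiz and Tnfaip3 lie above the 5 subunits in group mean, and Nfkbie and Nfkbib are lowest in Control.

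Ratios within a sample do not depend on how samples are scaled, and they were chosen after the values were seen, so they are given without a test. The per-kilobase ratio of Relb to Rel was 1.01, 1.11 and 1.04 in Control and 1.95, 1.43 and 1.39 in Sox9cKO. These ranges did not overlap. The size of the ratio depends on the merged exon lengths, 3.885 kb for Relb and 7.466 kb for Rel. In normalized counts the Control means were 1689 for Relb and 3088 for Rel. Tnfaip3 over Nfkb1 was 1.76, 2.48 and 2.51 in Control and 3.36, 3.77 and 3.21 in Sox9cKO, also without overlap. The other ratios computed overlapped between the groups. Tnfaip3 over Nfkbia was 0.359, 0.497 and 0.631 in Control and 0.623, 0.938 and 0.980 in Sox9cKO. Nfkb1 over Nfkb2 was 0.708, 0.885 and 0.743 in Control and 0.775, 1.09 and 1.02 in Sox9cKO. Tnfaip3 made up 10.2%, 15.5% and 15.7% of the summed per-kilobase level of the 10 members in Control and 18.2%, 23.7% and 22.4% in Sox9cKO. The 5 subunits together made up 28.1% to 31.8% in Control and 26.2% to 29.1% in Sox9cKO, which overlap.

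The 5 genes whose centred log2 values were nearest to those of Tnfaip3 over the 6 samples, among tested genes with a mean of at least 100, were Tbc1d1, Bmp6, Zfp697, Malt1 and Socs2. The root-mean-square difference was 0.088, 0.091, 0.11, 0.15 and 0.15 on the log2 scale. Malt1 encodes the paracaspase of a complex that activates the IkB kinase and is also known to cleave A20. Its counts were 1698, 2400 and 2930 in Control and 2534, 4261 and 3468 in Sox9cKO, which overlap. Its difference on the log2 scale was 0.55 (limma adjusted p 0.317).

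The genes around the members were read from lists of upstream receptors, kinases and adaptors, further inhibitors, and textbook targets. Among 31 kinases and adaptors, all tested, limma called 0, with 11 under an unadjusted p of 0.05 (17.8% of all tested genes were). edgeR also called 0, DESeq2 called Ikbke and Tirap, and limma with the replicate block called Ikbke and Traf3, all higher. Of all tested genes DESeq2 called 7.08% in both directions, and limma with the block called 5.06% as higher. edgeR with the block called Ikbke but not Traf3 (adjusted p 0.0689). Tirap and Traf3, and below Rnf11, Tnfrsf11a and Gadd45b, are named because of their values. The median log2 fold change of this list was 0.11 and 23 of 31 values were positive. In 10 genes all Sox9cKO samples lay above all Control samples and in 1 below, against 13.4% and 10.8% of all tested genes. Ikbke encodes an IkB kinase-related enzyme that is itself induced by NF-kB. It had counts of 783, 1081 and 952 in Control and 1328, 2328 and 2398 in Sox9cKO, so the groups were separate. Its log2 fold change was 1.07 with a limma adjusted p of 0.0763, and 0.0063 with the replicate block. Without Sox9cKO replicate 1 it was called, at 1.34 (limma adjusted p 0.0214). Ikbkg, encoding the scaffold NEMO of the IkB kinase, had counts of 244, 271 and 275 in Control and 404, 380 and 352 in Sox9cKO (log2 fold change 0.52, limma adjusted p 0.0980).

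Among 17 tested further inhibitors, limma called 1, as higher (2.03% of all tested genes were called higher). Irak3, which encodes a kinase-dead brake on signalling from Toll-like and interleukin-1 receptors, rose from 63.0, 80.7 and 56.5 to 149, 172 and 161 (log2 fold change 1.27, limma adjusted p 0.0211). Its call remained in only 1 of the 6 fits that left out 1 sample, the one without Control replicate 2, and the adjusted p was 0.0525 to 0.103 in the other 5. With the replicate block Rnf11, part of the A20 complex, was also called, as lower (log2 fold change -0.49, limma adjusted p 0.0396), and DESeq2 (adjusted p 0.0301) and edgeR with the block (0.0348) called it as well. Of all tested genes limma with the block called 2.99% as lower, and DESeq2 called 7.08% in both directions. The median of the list was 0.055.

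Of 22 receptor genes 17 were tested, and limma called 1, as higher (2.03% of all tested genes were called higher). Tnfrsf1b, the gene of TNF receptor 2, rose from 630, 658 and 505 in Control to 1356, 2149 and 1328 in Sox9cKO (log2 fold change 1.40, limma adjusted p 0.0185). The call was lost without Control replicate 1 (limma adjusted p 0.0792) and without Control replicate 3 (0.0740). Tnfrsf11a, the gene of the receptor RANK, was called higher with the replicate block (log2 fold change 0.99, limma adjusted p 0.0461) and by DESeq2 (adjusted p 0.0121), but not by edgeR with the block (0.0652). Of all tested genes limma with the block called 5.06% as higher, and DESeq2 called 7.08% in both directions. The median of the list was 0.11 with limma and -0.014 with edgeR.

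Of 40 tested textbook targets, 7 were called higher and 0 lower by limma, against 2.03% and 0.939% of all tested genes. In this list 33 values were positive and the median log2 fold change was 0.23, against 0.036 over all tested genes. The list was chosen with earlier results of these data known, so these shares are a description and not a test of the list. With the replicate block 11 were called higher and 1, Gadd45b, lower, against 5.06% and 2.99% of all tested genes. edgeR called 6 higher and Gadd45b lower (1.82% and 1.04% of all tested genes). DESeq2 called 11 higher and Gadd45b lower, and over all 17153 tested genes it called 721 higher and 493 lower. Ltb encodes lymphotoxin-beta, a ligand of the noncanonical branch that leads to Nfkb2 and Relb. It rose from 45.4, 57.5 and 64.5 in Control to 393, 460 and 249 in Sox9cKO (log2 fold change 2.67, limma adjusted p 0.00459). Lcn2, encoding the iron-scavenging lipocalin 2, rose from 1426, 1969 and 2490 to 8969, 7915 and 6028 (1.98, limma adjusted p 0.00699). Both kept their calls in all 19 alternative fits, and in each gene the lowest Sox9cKO sample lay far above the highest Control sample.

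Of the 3 colony-stimulating factor genes in the list, 2 were called. Csf2, encoding GM-CSF, rose from 3.36, 5.57 and 5.76 to 81.6, 227 and 62.3 (log2 fold change 4.19, limma adjusted p 0.00777), and Csf3, encoding G-CSF, from 72.3, 208 and 112 to 661, 1062 and 701 (2.72, limma adjusted p 0.0133). The Control counts of Csf2 stand for a handful of reads each, so its fold is imprecise. Csf3 lost its call without Control replicate 3 (limma adjusted p 0.0589), and Csf2 kept it in all 19 alternatives. Csf1, encoding M-CSF, was not called (log2 fold change 0.32, limma adjusted p 0.650), and its groups overlapped. Plau, encoding urokinase, rose from 242, 598 and 300 to 1244, 1349 and 1179 (1.83, limma adjusted p 0.0277). Ccl2, encoding the monocyte chemokine MCP-1, rose from 36.1, 194 and 43.8 to 624, 1785 and 854 (3.84, limma adjusted p 0.0297). Tnf, named after its values were seen because it completes the 7, rose from 367, 634 and 619 to 1242, 1555 and 1180 (1.33, limma adjusted p 0.0312).

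The calls of Plau, Ccl2 and Tnf were lost in 5 of the 6 fits that left out 1 sample and remained only without Control replicate 2. The adjusted p from limma in those 5 fits was 0.0795 to 0.104 for Plau, 0.0606 to 0.118 for Ccl2 and 0.0516 to 0.0950 for Tnf. Without an intensity trend in limma the adjusted p was 0.0623, 0.0629 and 0.0708. Ccl2 also missed the threshold with edgeR (adjusted p 0.0576), and Tnf with the Xist covariate (limma adjusted p 0.0705). Control replicate 1 was the lowest Control sample for Tnfaip3 and for every target called by limma, namely Tnf, Csf3, Plau, Ccl2, Ltb, Lcn2 and Csf2.

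**Figure D4:**
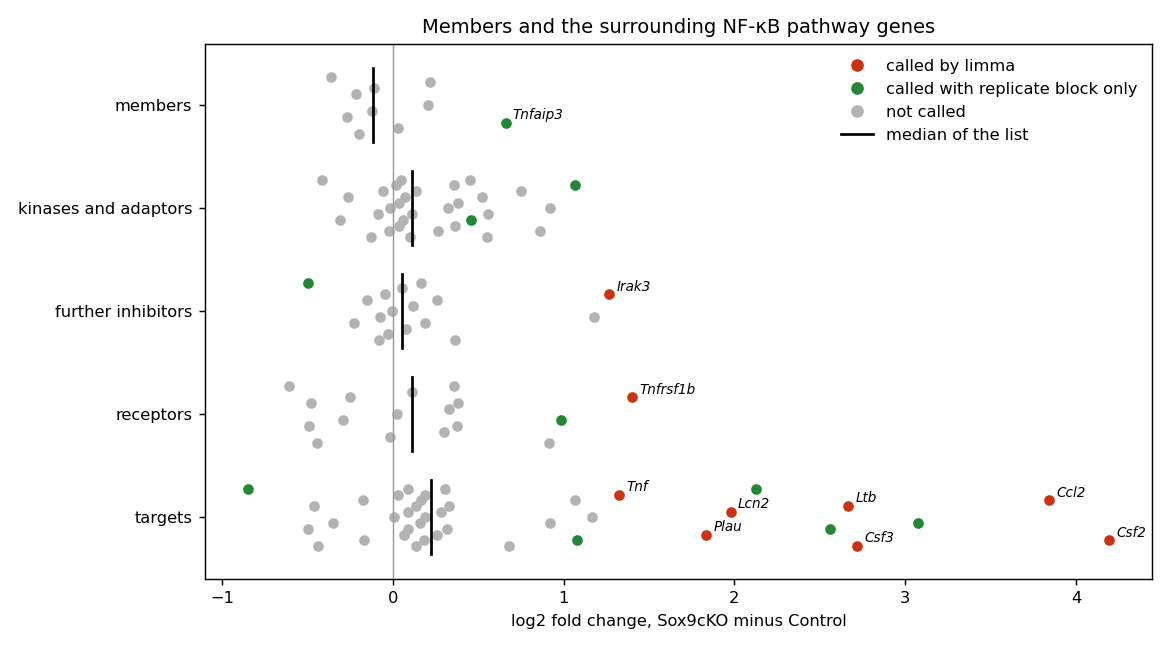
Log2 fold change (Sox9cKO minus Control, horizontal axis) of the members and of the 4 surrounding lists, 1 dot per tested gene, with black bars for list medians, red for genes called by limma and green for genes called only with the replicate block. The members lie between -0.36 and 0.66, and the 7 targets called by limma lie between 1.33 and 4.19.

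Several called targets are also expressed by other cell types. With the endothelial score as covariate, a fit chosen after the data were examined, all 7 kept their limma calls. Their log2 fold changes were 1.31 (Tnf) to 4.07 (Csf2), with limma adjusted p up to 0.0339. The score comes from these same samples, and the part of endothelial, hepatocyte or leukocyte transcripts in their rise was not tested.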

How the data were processed

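The deposited signal is a normalized count, the reads of a gene over 1 size factor for each sample. The submitters' processing notes name DESeq2 1.36.0 and the build GRCm39. The aligner, the counter and the use of molecular identifiers are not given in the sources used here. Libraries came from rRNA-depleted total RNA with a stranded kit, per the labels. Every value was a whole multiple of its sample's step (tolerance 0.001), which gave back whole reads for 100% of values. Values were tested as log2(value + 1) with limma 3.58.1 (R 4.3.3, intensity trend) where the mean over the 6 samples was at least 10, with Benjamini-Hochberg adjustment over all tested genes, two-sided. Fold changes are on that scale. edgeR 4.0.16 and DESeq2 1.42.0 were run on the recovered reads as alternatives.

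The labels number replicates 1 to 3 in each group. Deviations from group means of equal-numbered samples correlated across genes at 0.207, 0.472 and 0.542, so the numbers were taken to pair the samples. Pair 3 joins an Xist-high Control sample to an Xist-low Sox9cKO sample, so equal numbers do not always share a sex. Among the members, named genes and the marker lists other than the biliary one, the fit with the number as a block is given where it changes a call.

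The members and lists were chosen with earlier results of these data known. Named genes were the members, Sox9, up to 6 called genes per list by p-value (or the 2 with the smallest p), and the 5 genes nearest to the member with the smallest p. Promoters are from RefSeq (GRCm38.p6) and exon lengths from GENCODE M21 (GRCm38), matched by symbol and by Ensembl identifier. The scripts were tested on simulated data. Intervals are at the 95% level. Some results on the biliary markers are not reported here.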

Additional observations from a re-analysis of the deposited data

How the results depend on the processing

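The counts of calls and the fold changes of the members, Sox9 and the 11 other genes named by rule or as called targets were recomputed in 17 alternative fits and in 2 more chosen after the data were examined. No member was called in any of them except Tnfaip3 with the replicate block (log2 fold change 0.66, limma adjusted p 0.0442, 1 member called), and the block changed no other member's call. Tnfaip3 ranged from 0.39 to 0.80 when 1 sample was left out. Nfkb1 had no stable sign: it was -0.068 with quantile normalization, -0.015 with edgeR, -0.014 with edgeR and the replicate block, -0.0081 with DESeq2, -0.041 with the Xist covariate, and -0.077 to 0.12 when 1 sample was left out. Nfkbia ranged from -0.22 to 0.042 in those fits. The other members kept their sign throughout. The number of called genes over the whole table, 510, became 1381 with the replicate block, 1160 with edgeR and the replicate block, 1214 with DESeq2, and 199 to 387 when 1 sample was left out. Fewer samples were used in the last. The cause of the other shifts was not tested. The per-kilobase levels and ratios were not recomputed. With 3 samples a group, the 95% intervals give the precision of each difference.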
